A study of Mus musculus with 4 samples.

Results

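The comparison described here sets female mouse embryonic stem cells (mESCs) carrying the hairpin Smarca4.6, directed against Smarca4, beside cells carrying a non-silencing control hairpin (Nons), both at day 6 of differentiation. The genes were chosen by position and level: of 25965 genes in the deposited table, 24483 lie on autosomes, and the 12751 of these with a mean log2 CPM (CPM, reads scaled to library total) over all 4 libraries of at least 0 were kept. RNA-seq was made from 4 libraries, 1 each for day 0, Nons day 6, Smarca4.6 day 6 and a second hairpin, Smarca4.4, at day 6. All came from female FVB/CAST F1 mESC lines, expanded in 2i medium and weaned from it to differentiate. Per the labels the hairpins were delivered by virus on day 2 and the cells selected with puromycin on day 3, so Nons cells share the transduction and the selection with Smarca4.6 cells. By those days, day 0 comes before the virus and the puromycin. Differences between day 0 and a day 6 library therefore span those steps as well as differentiation. The genotype field names day 0 a nonsilencing control and gives Smarcc knockdown for every day 6 library, also for Nons, so groups were taken from the titles. The comparison asks what partial loss of Smarca4 changes in differentiating cells. Each group is 1 library, so no difference has a replicate check, no p-value was computed, and every interval of a gene's difference is an exact 95% interval for counting error between 2 libraries, not 2 conditions.

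Smarca4, also called BRG1, is an ATPase of the BAF complex, which slides and evicts nucleosomes and so changes access to promoters and enhancers. In mESCs it is the main ATPase of the complex, and it takes part both in keeping pluripotency genes active and in opening the enhancers of lineage genes as cells differentiate. A short hairpin RNA is processed to a guide strand, which pairs with the complementary site in a messenger RNA and lowers its level.

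The guide of Smarca4.6 and its site are shown because they define what was depleted, with the guide's bases 2 to 8 (the seed) and the bases of the site that pair with them in capitals. The guides came from the study's oligonucleotide list and the sites from the reference transcripts.
Smarca4.6 guide: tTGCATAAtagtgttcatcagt
Smarca4.6 site: actgatgaacactaTTATGCAa
Smarca4.4 guide: tTTATTACtgtctgactccagt
Smarca4.4 site: actggagtcagacaGTAATAAa
The Smarca4.6 site lies at chr9:21670504-21670525 on the plus strand of GRCm38 (mm10), in exon 22 of 34 of Smarca4, within the coding sequence. The Smarca4.4 site lies at chr9:21703327-21703348, in exon 34, in the 3′ UTR. The only other transcript with 3 or fewer mismatches to the Smarca4.6 site belonged to Vmn1r213, a vomeronasal receptor gene that had no reads in either the Nons or the Smarca4.6 library.

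Smarca4 (chr9:21616169-21704230) stood at a log2 CPM of 7.93 on day 0, 7.84 with Nons, 7.04 with Smarca4.4 and 7.44 with Smarca4.6. The Smarca4.6 library was therefore below Nons by 0.40 on the log2 scale (interval of the difference -0.44 to -0.35), at 75.8% of the Nons level, and lay between the Nons and Smarca4.4 libraries. The labels were matched in direction, and most of the transcript remained. The 5th percentile of the same difference over all kept genes was -0.52, so the Smarca4 difference lay within their spread. The other kept subunits of BAF, 26 genes, included none at least 2-fold different, and their median difference was 0.14. Of these, 22 lay above 0 and 4 below, where 58.6% of all kept genes lay above 0. The largest difference was that of Dpf1, which encodes a subunit of the neuronal form of the complex, with log2 CPM of 3.59 on day 0, 1.63 with Nons, 2.01 with Smarca4.4 and 2.55 with Smarca4.6. The paralogous scaffold subunits Smarcc1 and Smarcc2 were higher by 0.28 and 0.36, and the DNA-binding subunits Arid1a and Arid1b by 0.35 and 0.38. Under centring on the autosomal median the list's median was 0.082.

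Recovered totals were 18599402 reads on day 0 and, at day 6, 45759793 with Nons, 47143739 with Smarca4.4 and 36495575 with Smarca4.6. The mESC markers Pou5f1, Nanog, Sox2, Zfp42 and Esrrb summed to 3139 CPM at day 0, 1049 in Nons and 1092 in Smarca4.6, and Pou5f1 made up most of both day 6 sums. Pou5f1 was higher in Smarca4.6 than in Nons by 0.10, while Nanog and Sox2 were lower by 0.39 (interval of the difference -0.48 to -0.30) and 0.38 (-0.48 to -0.28). The 4 smooth muscle markers (Acta2, Tagln, Cnn1 and Myh11) summed to 0.753 CPM on day 0, 1062 with Nons, 783 with Smarca4.4 and 668 with Smarca4.6. Tagln made up most of every day 6 sum, with 852 CPM in Nons and 538 in Smarca4.6. Myh11 differed by -0.04, from 54 reads in Nons and 42 in Smarca4.6. The 4 neuronal markers found summed to 237 CPM on day 0, 166 in Nons and 221 in Smarca4.6, so both day 6 sums lay below day 0. The 4 cardiac markers summed to 6.45 CPM on day 0, 5.94 in Nons and 6.71 in Smarca4.6. The 12 blood cell markers summed to 2.80, 12.4 and 15.4 CPM in the same order, with 5 at 0 reads in Nons and 3 in Smarca4.6. The 11 endothelial markers summed to 245, 94.9 and 86.0 CPM, with 1 at 0 in each. In bulk RNA, fewer cells of a type and less RNA per cell cannot be told apart.

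Across the 12751 genes the median difference between Smarca4.6 and Nons was 0.06 on the log2 scale, the middle of the distribution ran from -0.14 to 0.25 (quartiles) and the 5th and 95th percentiles were -0.52 and 0.61. At least 2-fold different (past 2-fold) were 227 genes (1.78% of those kept), of which 125 (0.980%) were higher and 102 (0.800%) lower in Smarca4.6. Centring on the autosomal median turned that split into 96 higher and 129 lower, and centring within bins of GC content and transcript length into 88 higher and 112 lower, so the balance of directions depends on the scaling. For comparison, 2519 genes (19.8%) were at least 2-fold higher and 1450 (11.4%) lower in Nons day 6 than at day 0. The smallest difference counted as higher was 1.003 and the next one below it 0.997. The smallest counted as lower was -1.01 and the next -0.997. Of the 227 genes, 188 (104 higher and 84 lower) had an interval lying wholly beyond 1.5-fold, and 1 had an interval that included 0. Of the 227, 46 overlap another gene, and since the strand setting of the counting was not given in the sources used here, the reads of overlapping genes are uncertain.

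The genes that differed were mostly of low abundance. Among the 1072 genes with a mean log2 CPM from 0 to 1, 58 were higher and 39 lower by at least 2-fold, whereas among the 5300 genes with a mean of 5 or more there were 3 and 6. The higher genes had a median of 68 reads in Nons and the lower genes 217.5. Transcript length and GC content also moved with the calls. In the fifth of genes with the shortest transcripts 15 were higher and 29 lower, and in the fifth with the longest 21 and 8. In the fifth of lowest GC content 19 were higher and 7 lower, and in the highest 34 and 27. Their part in the calls was not tested beyond the binned centring above.

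**Figure D1:**
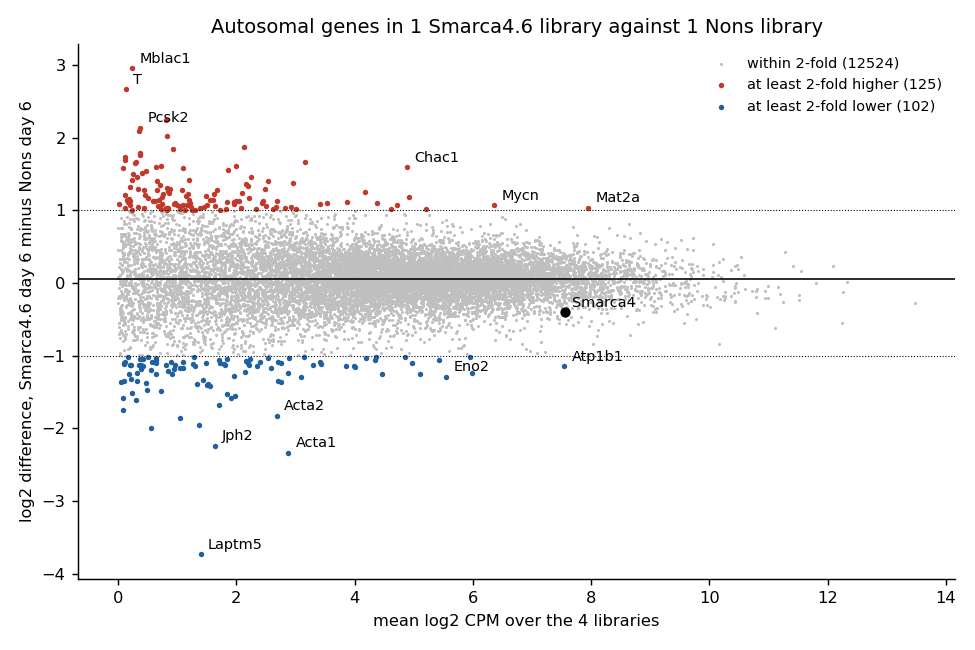
Difference in log2 CPM between 1 Smarca4.6 library and 1 Nons library (vertical axis) against the mean log2 CPM over the 4 libraries (horizontal axis) for 12751 autosomal genes, each a point. Red points (125) were at least 2-fold higher and blue points (102) at least 2-fold lower in Smarca4.6, dotted lines mark 2-fold, the solid line marks the median of 0.06, and most coloured points lie at low levels.

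The filter averages all 4 libraries, so a gene can pass it through the library where it is high. Of the 125 higher genes, 37 lay below a log2 CPM of 0 in Nons. T, Mblac1, Pcsk2, Gprin1, Pcdh18 and Fgf8 passed the filter only with their Smarca4.6 level counted. Among the higher genes whose counting interval lay farthest from 0 were T and Mblac1, both thinly counted in Nons. T (brachyury, chr17:8434423-8442496), the transcription factor that marks the primitive streak and early mesoderm, had a log2 CPM of 2.55 on day 0, -1.35 with Nons, -1.97 with Smarca4.4 and 1.32 with Smarca4.6. Its difference between Smarca4.6 and Nons was 2.66 (interval 1.92 to 3.48), from 18 reads in Nons and 91 in Smarca4.6. The Smarca4.6 library thus lay between day 0 and Nons, while the Smarca4.4 library was below Nons. Mblac1 (chr5:138194314-138195621), a gene of the metallo-beta-lactamase domain family, showed the largest positive difference, 2.96, with log2 CPM of 0.59 on day 0, -1.52 with Nons, 0.44 with Smarca4.4 and 1.44 with Smarca4.6. Only 16 reads stood behind its Nons value.

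Several of these genes were nearly absent at day 0 and present at day 6, and were higher still in Smarca4.6. Pcsk2, a protease that processes prohormones, had 1 read at day 0 and log2 CPM of 0.88 with Nons, 1.83 with Smarca4.4 and 3.01 with Smarca4.6. Gfra1, a receptor for glial cell line-derived neurotrophic factor, had 1 read at day 0 and 2.10, 2.85 and 3.68 in the same order. Gprin1, which takes part in neurite outgrowth, had 1 read at day 0 and 0.69, 2.55 and 2.48. In all 3 genes both hairpin libraries lay above Nons. Both are set against the same single Nons library, so here and below such agreement is not a separate check of the difference. Lix1 also had 1 read at day 0 and was at 1.10 with Nons, 3.31 with Smarca4.4 and 3.12 with Smarca4.6, and Pcdh18, a non-clustered protocadherin gene, had 2 reads at day 0 and was at 0.24, 1.49 and 1.98.

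The imprinted genes Magel2 and Peg12 of the Prader-Willi region were also among these, from 162 and 54 reads in Nons. Magel2 (chr7:62376979-62381640) had 1 read at day 0 and log2 CPM of 1.82 with Nons, 2.44 with Smarca4.4 and 3.67 with Smarca4.6, a difference of 1.85 (1.59 to 2.12). Peg12 (chr7:62461871-62464510), its neighbour, was at 4.14 on day 0, 0.24 with Nons, 2.04 with Smarca4.4 and 2.10 with Smarca4.6, a difference of 1.87 (1.41 to 2.34). The 2 genes had moved in opposite directions from day 0 to Nons, and both were higher in Smarca4.6 than in Nons. They were the only 2 of the 30 kept imprinted genes at least 2-fold different, where 1.78% of all kept genes were. The median of that list was 0.12, Cdkn1c, which encodes an inhibitor of the cell cycle, was higher by 0.83, and the most abundant members, Peg10 and H19, differed by 0.24 and 0.04. Peg3, an imprinted zinc finger gene, was the lowest, at log2 CPM of 6.90 on day 0, 9.10 with Nons, 8.93 with Smarca4.4 and 8.55 with Smarca4.6.

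Among the abundant genes past 2-fold on the higher side were Mycn and Myc, transcription factors of cell growth. Mycn was at log2 CPM of 7.45 on day 0, 5.52 with Nons, 5.86 with Smarca4.4 and 6.59 with Smarca4.6, a difference of 1.07 (0.99 to 1.15). Myc was at 2.14, 4.94, 5.73 and 6.02 in the same order, a difference of 1.08 (0.98 to 1.17). The former was lower in Nons than at day 0 and the latter higher, and both lay above Nons with either hairpin. Mat2a, which makes S-adenosylmethionine, the methyl donor of the cell, had the highest level of all genes at least 2-fold higher, with 7.91, 7.40, 8.04 and 8.43. Its difference was 1.04 (1.00 to 1.08), and 0.97 after centring. Chac1, which degrades glutathione and is induced by amino acid shortage, was at 4.82, 4.18, 4.75 and 5.77, a difference of 1.60 (1.48 to 1.71). The cytokine gene Ltb had 1 read at day 0 and was at 4.65 in Nons and 6.02 in Smarca4.6, and the membrane trafficking genes Ap1s3 and Syt11 were higher by 1.02 and 1.03. Fam167a (difference 2.25) completes these genes, with Nab2, a co-repressor of Egr factors. Nab2 differed by 1.67 but overlaps Stat6 and Tmem194 on the other strand. Pcsk2 and Gfra1 overlap other annotated loci on the other strand.

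**Figure D2:**
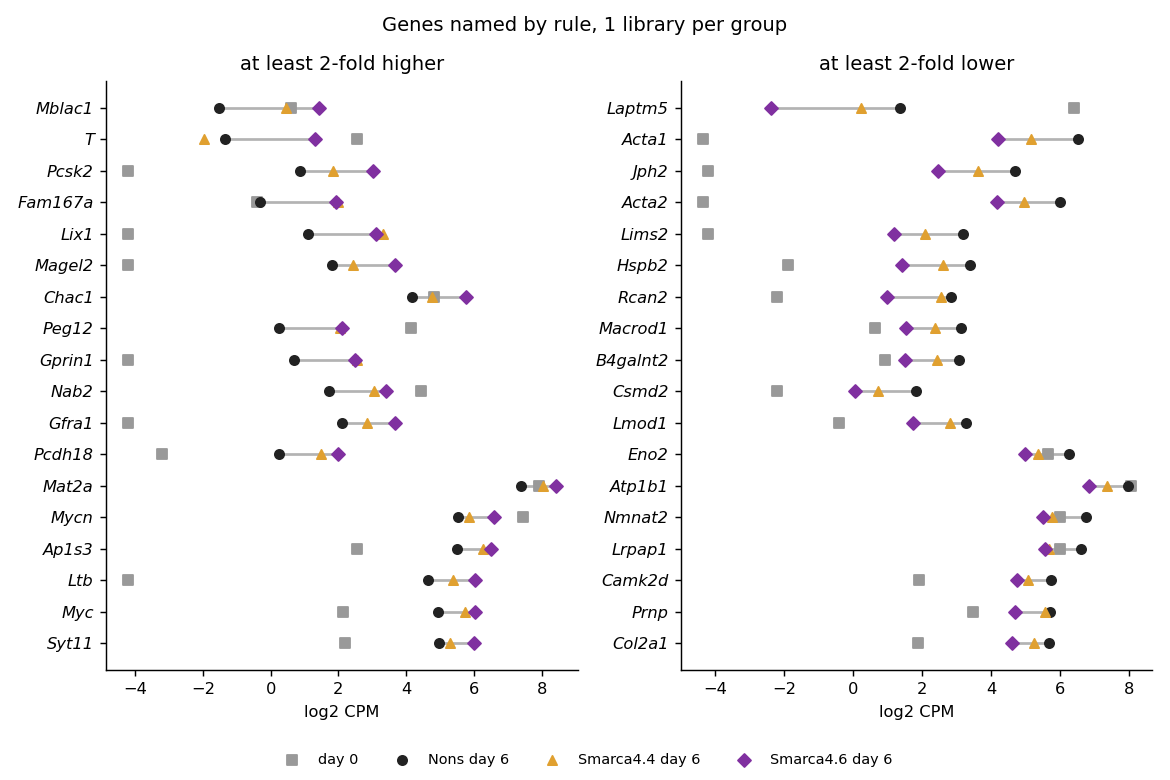
Levels (log2 CPM, horizontal axis) of the 36 genes named by rule in the day 0, Nons, Smarca4.4 and Smarca4.6 libraries, 1 point per library; grey lines join Nons and Smarca4.6, and genes with 0 reads are drawn at 0.9 of a read. In the left panel every Smarca4.6 point lies at least 1 log2 unit above Nons and in the right panel at least 1 below, while the day 0 points lie on either side.

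The lower genes whose counting interval lay farthest from 0 included Acta1, Acta2 and Jph2, all nearly absent at day 0. Acta1 (chr8:123891767-123894736), which encodes skeletal muscle actin, had 0 reads at day 0 and log2 CPM of 6.53 with Nons, 5.16 with Smarca4.4 and 4.19 with Smarca4.6. Its difference between Smarca4.6 and Nons was -2.33 (-2.45 to -2.22), against a level in Nons at least 9.16 above day 0 on the log2 scale when day 0 is set to the floor of 3 reads. Acta2 (chr19:34241090-34255336), smooth muscle actin, also had 0 reads at day 0 and was at 5.98, 4.95 and 4.15, a difference of -1.83 (-1.95 to -1.70) against at least 8.61 in Nons over day 0. In both genes Smarca4.6 was the lowest of the day 6 libraries, and it still lay far above day 0. Smarca4 itself was lower in Smarca4.4 (7.04) than in Smarca4.6 (7.44), the reverse of the order of Acta1 and Acta2. Genes were picked by their Smarca4.6 difference, and the reason for this order was not tested. Acta1 overlaps Gm20388 on the other strand. Jph2, which ties the plasma membrane to the sarcoplasmic reticulum in muscle, had 1 read at day 0 and was at 4.68, 3.62 and 2.45, a difference of -2.24 (-2.46 to -2.02).

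Other lower genes had related or unrelated roles. Lmod1, which nucleates actin filaments in smooth muscle, was at log2 CPM of -0.41 on day 0, 3.25 with Nons, 2.79 with Smarca4.4 and 1.73 with Smarca4.6. Hspb2, a small heat shock protein of muscle, was at -1.90, 3.38, 2.59 and 1.43 in the same order. Lims2, a focal adhesion gene, had 1 read at day 0 and was at 3.18, 2.07 and 1.19. All 3 were higher in Nons than at day 0 and lower in Smarca4.6 than in Nons by 1.52 or more. Rcan2, a regulator of the phosphatase calcineurin, was lower by 1.86, and Camk2d, a calcium-dependent kinase, by 1.01. Col2a1, type II collagen, was at 1.87, 5.67, 5.25 and 4.61. Among genes within 2-fold between day 0 and Nons, Atp1b1, a subunit of the sodium pump, was at 8.05, 7.96, 7.35 and 6.82, a difference of -1.15 (-1.20 to -1.09). Nmnat2, which makes NAD, was at 6.00, 6.73, 5.75 and 5.49, and Eno2, the neuronal enolase, at 5.63, 6.26, 5.35 and 4.97. In these 3 genes the Smarca4.6 library was below both Nons and day 0.

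The largest negative difference was that of Laptm5, a lysosomal membrane protein best known from blood cells, which was lower by 3.74 (interval of the difference -5.08 to -2.65). It was at log2 CPM of 6.38 on day 0, 1.35 with Nons, 0.22 with Smarca4.4 and -2.38 with Smarca4.6, from 117 reads in Nons and 7 in Smarca4.6. It had thus been lost in large part by Nons day 6 and was lower still in both hairpin libraries. Of the remaining named genes, Macrod1 was lower by 1.58, B4galnt2 by 1.56, Csmd2 by 1.75, Lrpap1 by 1.02 and Prnp, the prion protein gene, by 1.02. Prnp overlaps Prnd on the same strand, and Lims2 overlaps Gpr17 on the other.

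Smooth muscle and SRF target genes lay mostly below Nons in Smarca4.6. SRF (serum response factor) and its coactivators drive actin and contractile genes. Of 24 kept members, 2 were at least 2-fold lower (Acta2 and Lmod1) and none higher, 19 lay below 0 and 5 above, and the median difference was -0.29, beside 0.06 over all kept genes. Of all kept genes, 0.800% were at least 2-fold lower, 0.980% higher, and 58.6% lay above 0. The counts of every later list are to be read beside these shares. The smooth muscle and SRF genes had a median of 2.96 between day 0 and Nons, with 22 of 24 at least 2-fold higher at day 6. Tagln (transgelin), which overlaps Pcsk7 on the other strand, was at log2 CPM of -1.41 on day 0, 9.73 with Nons, 9.32 with Smarca4.4 and 9.07 with Smarca4.6. Tpm1 (tropomyosin) was at 6.44, 10.94, 10.55 and 10.39, and Cald1 (caldesmon) at 7.06, 9.67, 9.63 and 9.13. Des (desmin), an intermediate filament of muscle, was at 0.59, 4.38, 3.76 and 3.65. These members lay below Nons by 0.53 to 0.74, small beside their gain since day 0. On the other side, Zyx (zyxin), a protein of focal adhesions, was at 1.40, 6.03, 6.26 and 6.42, and the coactivator genes Mkl1 and Mkl2 were higher by 0.21 and 0.29. The summed smooth muscle markers, mostly Tagln, were at 1062 CPM in Nons and 668 in Smarca4.6, and what part a different share of such cells has in this result was not tested.

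Striated muscle sarcomere genes were split. Of 13 kept members, 2 were at least 2-fold lower (Acta1 and Tnnc2, a troponin C gene that overlaps Ube2c on the other strand), beside 0.800% of all kept genes. Of the 13, 9 lay below 0 and 4 above, and the median was -0.09. Ttn (titin), the giant spring of the sarcomere, was at log2 CPM of 5.22 on day 0, 3.82 with Smarca4.4 and 3.99 with Smarca4.6, the last above Nons by 0.99. Myh6, cardiac myosin heavy chain, was at -1.41, 2.29, 2.52 and 2.58. Under the stricter filter, which asked for a mean log2 CPM of at least 3, the median of the few genes left was 0.58. That mean includes day 0, so Acta1, with 0 reads there, was dropped although it had 4219 reads in Nons. The filter thus changed which genes were counted, and its change of sign cannot show whether the list has a stable direction.

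Binding sites of SRF, called CArG boxes, were searched in the promoters of both lists (250 bases before to 50 after the start, RefSeq, GRCm38.p6), as CC, 6 bases that are each A or T, and GG, a pattern that reads the same way on both strands. Promoters were found for 21 of the 24 smooth muscle and SRF genes and for 12 of the 13 sarcomere genes, and a box for 4 and 3 of them, where 488 of the 27025 genes with a promoter (1.81%) had at least 1. Windows from 4 of these 7 genes are shown with the box in capitals, one with a strongly lower level, Acta1, and 3 with smaller differences.
Acta1, chr8:123894829-123894858, minus strand: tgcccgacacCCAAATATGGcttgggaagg
Cnn2, chr10:79988534-79988563, plus strand: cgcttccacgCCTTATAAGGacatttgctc
Vcl, chr14:20929161-20929190, plus strand: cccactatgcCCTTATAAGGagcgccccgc
Srf, chr17:46556225-46556254, minus strand: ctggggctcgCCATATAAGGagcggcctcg
Acta1 differed by -2.33, Cnn2, a calponin, by -0.35, Vcl (vinculin) by -0.09 and Srf itself by 0.06. A box in this window therefore did not go with 1 size of difference, and Acta2 and Lmod1 had none in it, which says only that these letters are not in those 300 bases.

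**Figure D3:**
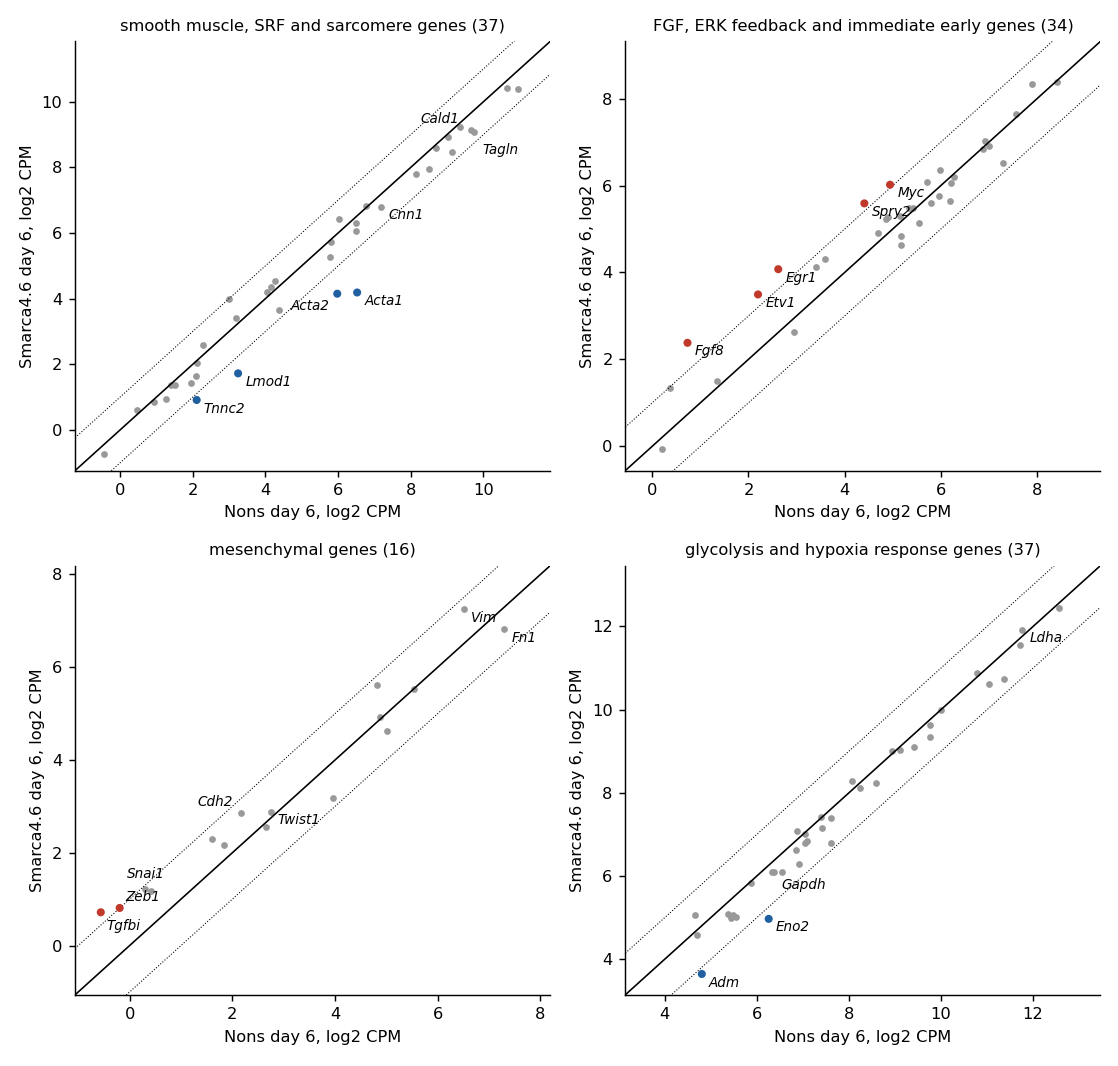
Level in Smarca4.6 (vertical axis, log2 CPM) against level in Nons (horizontal axis, log2 CPM) for the kept members of 3 pairs of lists and 1 single list, 1 library per axis; the solid line marks equal levels and dotted lines 2-fold. Blue points (Acta1, Acta2, Lmod1, Tnnc2, Eno2, Adm) were at least 2-fold lower and red points (Fgf8, Etv1, Spry2, Egr1, Myc, Zeb1, Tgfbi) at least 2-fold higher.

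Genes of FGF and ERK signalling and the immediate early genes held several higher members. ERK is the kinase that FGF receptors activate, and it induces transcription factors and its own inhibitors. Of 21 kept FGF and ERK feedback genes, 3 were at least 2-fold higher and none lower, beside 0.980% and 0.800% of all kept genes. The median was 0.10, and Fgf8 was kept only with its Smarca4.6 level counted. The ligand Fgf8 was at log2 CPM of -1.90 on day 0, 0.73 with Nons, -0.07 with Smarca4.4 and 2.38 with Smarca4.6, a difference of 1.65 (1.26 to 2.05). The ERK-induced transcription factor Etv1 was at 1.59, 2.20, 2.68 and 3.49, a difference of 1.30. The inhibitor Spry2 was at 4.65, 4.41, 5.04 and 5.59, a difference of 1.18. Fgf8 lay above Nons in Smarca4.6 and below it in Smarca4.4, whereas Etv1 and Spry2 lay above Nons in both hairpin libraries. Members of the same list went the other way: Spry1, another inhibitor, was at 3.46, 5.17, 4.73 and 4.64, and Phlda1 was lower by 0.55. Dusp6, the phosphatase of ERK and one of the most abundant members, was higher by 0.44.

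Of 13 kept immediate early genes, 2 were at least 2-fold higher, Myc and Egr1, beside 0.980% of all kept genes, and the median was 0.14. Egr1, a zinc finger factor induced by growth signals, was at log2 CPM of -0.63 on day 0, 2.62 with Nons, 2.93 with Smarca4.4 and 4.07 with Smarca4.6, a difference of 1.46 (1.25 to 1.67). Junb was higher by 0.38 and Ier2 by 0.37, while Btg2, an antiproliferative gene, was at 5.82, 7.28, 6.89 and 6.51. The list's median was -0.03 under the stricter filter, so only single genes are described.

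Mesenchymal genes had the highest list median, 0.50 over 16 kept members, of which 11 lay above 0 and 2 were at least 2-fold higher, beside 58.6% and 0.980% of all kept genes. Zeb1, a repressor of epithelial genes, was at log2 CPM of 5.13 on day 0, -0.19 with Nons, 1.13 with Smarca4.4 and 0.81 with Smarca4.6. Tgfbi, a matrix protein induced by TGF-beta, was at 2.34, -0.56, 0.14 and 0.72, and Vim (vimentin) at 6.79, 6.51, 7.01 and 7.25. In these 3 genes both hairpin libraries lay above Nons, and the first 2 rest on 64 and 60 reads in Smarca4.6. Fn1 (fibronectin), the most abundant member, was at 10.39, 7.29, 6.82 and 6.83, and Tgfb2 was lower by 0.77. Trophectoderm and simple epithelial genes (22 kept) had none past 2-fold and a median of -0.05. Cdh1 (E-cadherin), their most abundant member in Nons, differed by -0.02, and the keratins Krt18 and Krt19 by -0.42 and -0.91.

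Of 9 kept mesoderm and cardiac progenitor factors, T was higher and Tbx20, a T-box factor of the heart, lower by at least 2-fold, where 1.78% of all kept genes were past 2-fold. T was kept only with its Smarca4.6 level counted, so its place in this count rests on that library. Tbx20 was at log2 CPM of 0.03 on day 0, 3.81 with Nons, 3.03 with Smarca4.4 and 2.73 with Smarca4.6. Hand1 was at -1.90, 2.68, 4.28 and 3.45. The 14 endoderm genes had a median of 0.31, with Lama1 (6.28, 3.03, 4.63 and 3.82) and Gata4 (-0.13, 1.16, 1.57 and 1.90) above Nons in both hairpin libraries and Apoe, a lipid carrier, below it (8.55, 8.31, 7.83 and 7.47). None of the endoderm genes was past 2-fold. The 14 neural genes had a median of 0.10 and none past 2-fold. Tubb3, neuronal tubulin, was at log2 CPM of 6.80 on day 0, 5.86 with Nons and 6.47 with Smarca4.6. The last lay above Nons by 0.61, but the gene overlaps Gm20388 on the same strand.

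The 13 naive factors had a median of -5.13 between day 0 and Nons, with all 13 at least 2-fold lower in Nons, and a median of -0.08 between Nons and Smarca4.6. The only one past 2-fold was Tbx3, a T-box factor, at log2 CPM of 6.92 on day 0, 0.57 with Nons, 0.20 with Smarca4.4 and -0.55 with Smarca4.6, from 68 and 25 reads in the last comparison. Tfcp2l1, which helps hold the naive state, was at 10.01, 4.88, 4.70 and 4.37. The 18 core and primed genes had a median of 0.27 and none past 2-fold. Foxd3 was the highest, at 2.89, 1.94, 1.87 and 2.86, so that Smarca4.6 stood at the day 0 level. Dnmt3b, the de novo DNA methyltransferase, was at 6.34, 8.99, 9.23 and 9.63, while its cofactor gene Dnmt3l was at 6.07, 7.95, 7.88 and 7.01. The pair thus differed in opposite directions in Smarca4.6, by 0.64 and -0.94. Dnmt3l overlaps Aire on the other strand.

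**Figure D4:**
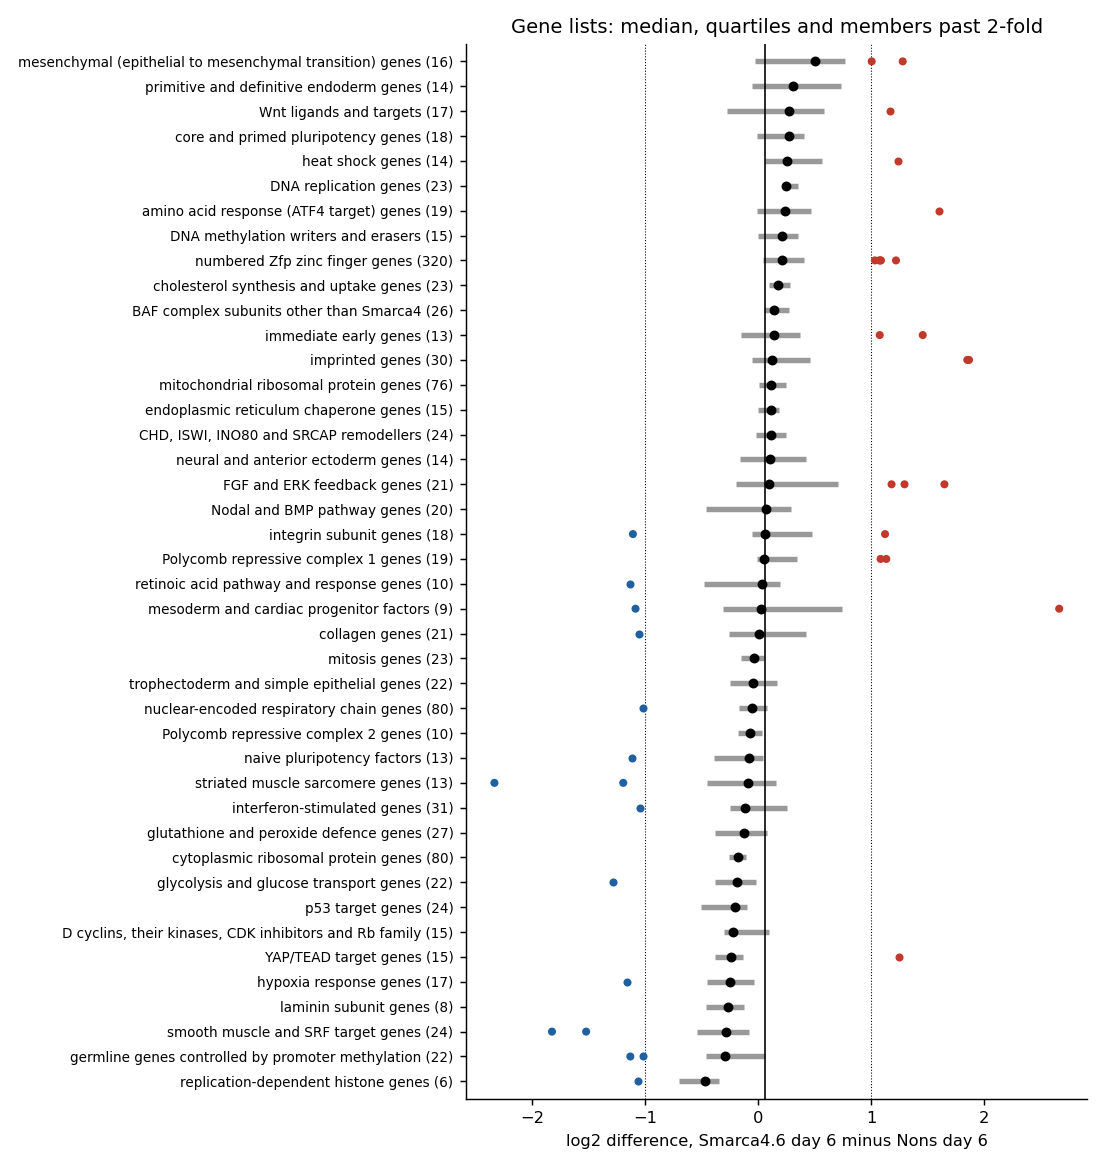
Median (black points) and quartiles (grey bars) of the difference in log2 CPM between Smarca4.6 and Nons for the 42 gene lists with at least 6 kept members, whose number is in parentheses; coloured points are single members at least 2-fold higher (red) or lower (blue). The solid line is the median of all kept genes, 0.06, and list medians ran from -0.47 (replication-dependent histone genes, of which few were kept) to 0.50 (mesenchymal genes).

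Housekeeping families differed little per gene. Of 80 kept cytoplasmic ribosomal protein genes none was past 2-fold, yet 72 lay below 0 and 8 above, with a median of -0.18 (-0.24 after centring). They had a median of 0.65 between day 0 and Nons. Rpl4, the most abundant member, was at log2 CPM of 11.26 on day 0, 11.75 with Nons, 11.52 with Smarca4.4 and 11.52 with Smarca4.6, and Rps2 at 8.24, 9.67, 9.20 and 9.27. Genes of this family share sequence with many processed pseudogenes, so their counts are uncertain. Mitochondrial ribosomal protein genes (76 kept) had a median of 0.12, with 57 above 0, beside 58.6% of all kept genes. Nuclear-encoded respiratory chain genes (80 kept) had a median of -0.06 and 1 member past 2-fold, the testis-type subunit gene Cox7b2, which was lower by 1.02.

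DNA replication genes lay nearly all above Nons. Of 23 kept members 21 lay above 0, beside 58.6% of all kept genes, with a median of 0.25 (0.19 after centring) and none past 2-fold. Ccne1 and Ccne2, the E cyclins that start S phase, were higher by 0.55 and 0.68, and Mcm3, part of the replicative helicase, by 0.39. Between day 0 and Nons the same list had a median of -0.61. The 23 mitosis genes had a median of -0.04. D cyclins, their kinases, CDK inhibitors and Rb family genes (15 kept) had a median of -0.23. Cdkn1a, the p53-induced inhibitor p21, was at log2 CPM of 7.18 on day 0, 6.51 with Nons, 6.25 with Smarca4.4 and 5.84 with Smarca4.6. Cdk6 was at 3.59, 5.20, 4.49 and 4.47. In the other direction, Cdkn1c, with the largest difference of the list, was higher by 0.83, and Ccnd1 and Rbl1 by 0.37.

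The p53 target genes lay mostly below Nons. Of 24 kept members 20 lay below 0, with a median of -0.21 and none past 2-fold. Mdm2, the ligase that degrades p53, was at log2 CPM of 7.63 on day 0, 7.59 with Nons, 7.56 with Smarca4.4 and 7.05 with Smarca4.6. Trp53inp1 was at 8.34, 8.34, 8.26 and 7.77. In these 2 genes Nons hardly differed from day 0, and Smarca4.6 was the only library that stood apart. Sesn2, also a target of ATF4, was at 6.03 in Nons and 6.72 in Smarca4.6.

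Metabolic and stress lists differed in sign. Glycolysis genes (22 kept, 17 below 0, median -0.19) held Eno2 past 2-fold and Slc2a3, the glucose transporter GLUT3, at log2 CPM of 11.30 on day 0, 11.36 with Nons, 11.04 with Smarca4.4 and 10.73 with Smarca4.6. Ldha, lactate dehydrogenase, was higher by 0.16. Hypoxia response genes (17 kept, 13 below 0, median -0.25) held Adm, the vasodilator adrenomedullin, at 3.22, 4.81, 4.34 and 3.65, past 2-fold, and Egln3, an oxygen sensor, at 7.04, 7.61, 7.15 and 6.80. Smarca4.6 was the lowest day 6 library for Slc2a3, Adm and Egln3. Cholesterol synthesis genes (23 kept, 19 above 0, beside 58.6% of all kept genes) had a median of 0.17 and none past 2-fold. Amino acid response genes (19 kept) had a median of 0.24, with Chac1 past 2-fold, Trib3 higher by 0.78, Atf4 itself by 0.56 and Cebpb lower by 0.57. Heat shock genes (14 kept) had a median of 0.26. Among them Hspd1, the mitochondrial chaperonin, was at 10.50, 9.13, 9.54 and 9.75 and Hsph1 at 8.98, 6.97, 7.47 and 7.63, so that Smarca4.6 lay between Nons and day 0. Hspd1 overlaps Hspe1 on the other strand. Hspb8 was lower in Smarca4.6 than in Nons by 0.69 and Hspb1 by 0.36. Hsp90ab1, the most abundant member in Nons, differed by 0.02. Hspa1a, past 2-fold at 1.23, is nearly identical to Hspa1b, which was higher by 0.71, and reads of the pair are uncertain.

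Signalling lists other than FGF gave single members. YAP/TEAD target genes (15 kept) lay below 0 in 13 cases, with a median of -0.24, and Ankrd1, Ctgf and Cyr61, their classic members, differed by -0.58, -0.47 and -0.18. The Smarca4.4 library, compared with the same Nons library, had a median of 0.09 over these 15 genes. Ankrd1 was at log2 CPM of 4.02 with Nons, 4.35 with Smarca4.4 and 3.44 with Smarca4.6, and Ctgf at 6.89, 6.96 and 6.41, so these genes lay above Nons with one hairpin and below it with the other. Fjx1 went against them, at log2 CPM of 1.62 on day 0, 4.35 with Nons, 5.15 with Smarca4.4 and 5.60 with Smarca4.6. Wnt ligands and targets (17 kept) had a median of 0.28, with the ligand Wnt5b higher by 1.17 and Rnf43, a negative regulator of the pathway, lower by 0.84. Nodal and BMP pathway genes (20 kept) had a median of 0.07 and none past 2-fold, with Bmp4 at 1.34, 3.01, 2.63 and 2.14 and Bmp7 lower by 0.98. Of 10 kept retinoic acid genes, Dhrs3, which reduces retinal, was at 0.74, 3.50, 2.24 and 2.36, past 2-fold, and Crabp2 was lower by 0.60. The 31 interferon-stimulated genes had a median of -0.12 and Gbp3 past 2-fold, with 0 reads at day 0 and 4.44, 3.87 and 3.40 at day 6.

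Matrix and adhesion genes were mixed. Collagen genes (21 kept) had a median of 0.00 and Col2a1 past 2-fold. Integrin genes (18 kept) had a median of 0.06, with Itga4 higher by 1.12 and Itgb4, which pairs with laminin-binding integrin alpha 6, at log2 CPM of 2.63 on day 0, 4.23 with Nons, 3.73 with Smarca4.4 and 3.12 with Smarca4.6. Of 8 laminin genes 7 lay below 0, among them Lamb3, a chain of an epithelial laminin, by 0.64. The medians of the collagen, integrin, retinoic acid, mesoderm and Polycomb repressive complex 1 lists changed sign under centring.

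Chromatin genes other than BAF differed by small amounts. Polycomb repressive complex 1 genes (19 kept) had a median of 0.05, and among them Cbx8, which encodes a chromodomain subunit, was past 2-fold, at log2 CPM of 1.81 on day 0, -0.35 with Nons, 0.25 with Smarca4.4 and 0.79 with Smarca4.6, from 36 reads in Nons. Polycomb repressive complex 2 genes (10 kept) and the CHD, ISWI, INO80 and SRCAP remodellers had none past 2-fold and medians of -0.07 and 0.12. Germline genes controlled by promoter methylation (22 kept) had a median of -0.30, with Tuba3a and Tuba3b, near-identical alpha tubulins, lower by 1.13 and 1.02, and Dazl lower by 0.63. Between day 0 and Nons 14 of these 22 were at least 2-fold lower.

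Numbered Zfp genes, mostly zinc finger transcription factors of which many repress transposable elements, lay mostly above Nons. Of 320 kept, 254 lay above 0 and 66 below, where 58.6% of all kept genes lay above 0. At least 2-fold higher were 5 and lower none, beside 0.980% and 0.800% of all kept genes, and the median was 0.21 (0.15 after centring). The best counted of the 5 was Zfp719, at log2 CPM of 3.01 with Nons, 3.56 with Smarca4.4 and 4.10 with Smarca4.6, from 369 reads in Nons and 625 in Smarca4.6. Zfp658, at 0.74, 0.10, 0.88 and 1.32, had the largest difference. The abundant members Zfp106, Zfp207 and Zfp568 were higher by 0.13, 0.12 and 0.17. Between day 0 and Nons the list had a median of -0.09.

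Families were also formed by symbol alone. Of 132 families with at least 10 kept members, the lowest medians were those of Anxa (annexins, -0.20 over 10 genes), Rpl (-0.19 over 63), Cox (-0.17 over 22), Rps (-0.16 over 50) and Tspan (tetraspanins, -0.16 over 14). The highest were those of Ints (subunits of Integrator, which processes small nuclear RNA, 0.35 over 11), Srsf (splicing factors, 0.30 over 11), Fzd (Wnt receptors, 0.27 over 10), Zscan (zinc finger genes with a SCAN domain, 0.26 over 12) and Polr (RNA polymerase subunits, 0.26 over 28). All 11 Ints and all 11 Srsf genes lay above 0, beside 58.6% of all kept genes. The families were picked for their medians, which are therefore a description.

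The remaining lists had no member past 2-fold or few members. Endoplasmic reticulum chaperones (15 kept), DNA methylation genes (15) and glutathione and peroxide genes (27) had medians of 0.12, 0.21 and -0.12 with none past 2-fold. Of 6 kept replication-dependent histone genes, 1 (Hist1h3c) was lower by 1.06 and the median was -0.47. Most genes of that list were too thinly counted to be kept, so its median describes only a small part of it. Only 3 Hox genes were kept, of which Hoxd13 was higher by 1.08 from 38 and 64 reads, and 2 clustered protocadherins, 3 blood markers and 3 endothelial markers, none past 2-fold. Of all 46 lists, 22 held no member past 2-fold.

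Relative to differentiation, the differences past 2-fold were found among genes that differ over it in both directions and were rarer among genes that stayed within 2-fold. To avoid sharing a library between both axes, genes were classed by the change from day 0 to Smarca4.4 day 6. Smarca4.4 is directed against the same gene, so a gene that both hairpins lower or raise is classed by its level in a knockdown library. Neither this classing nor the one by Nons given below is therefore neutral. Of 476 genes down at least 4-fold, 17 were at least 2-fold higher and 19 lower in Smarca4.6 than in Nons. Of 1309 genes up at least 4-fold, 32 were higher and 33 lower. Of 9020 genes within 2-fold, 48 (0.532%) were higher and 24 (0.266%) lower. The class medians were 0.02 and 0.05 for the genes down at least 4-fold and down 2 to 4-fold, 0.08 for those within 2-fold, and -0.02 and -0.02 for those up 2 to 4-fold and up at least 4-fold. When genes were classed by the change from day 0 to Nons, which shares the Nons library, these medians were 0.14, 0.15, 0.08, -0.09 and -0.07. The median of Nons levels was 1.51 among genes down at least 4-fold and 4.97 among those within 2-fold, and low levels carried most calls.

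**Figure D5:**
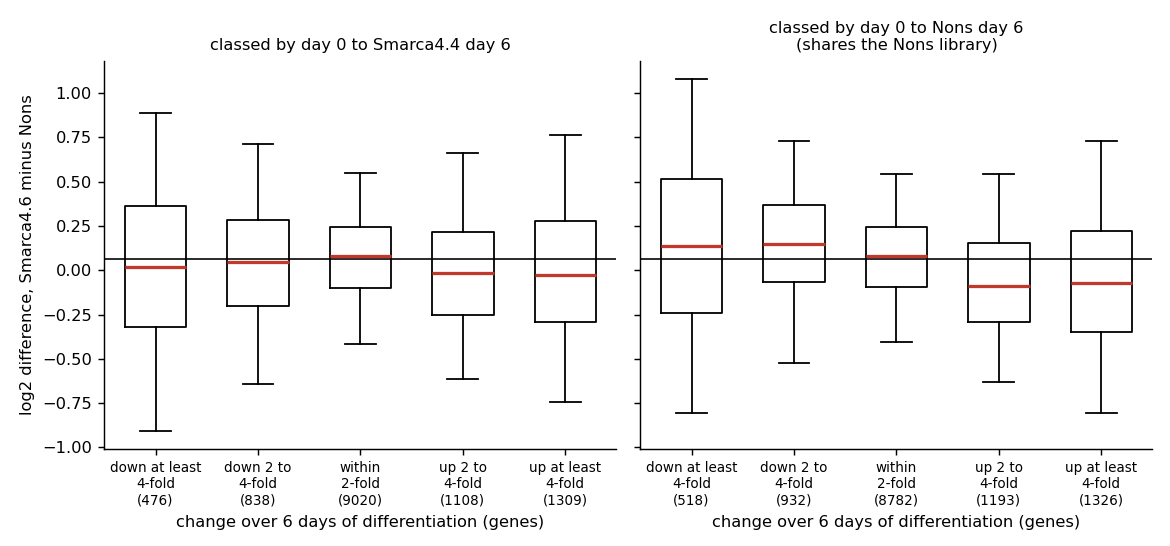
Difference in log2 CPM between Smarca4.6 and Nons (vertical axis) in 5 classes of genes by their change over differentiation, with the class made from day 0 to Smarca4.4 (left) or from day 0 to Nons (right); boxes are quartiles, red lines medians, whiskers the 5th and 95th percentiles, the black line is the median of all kept genes, and gene numbers are in parentheses. On the left, where a knockdown library sets the class, class medians lie between -0.02 and 0.08. On the right, where both axes share the Nons library, they lie between -0.09 and 0.15.

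Genes with a match to the seed of the Smarca4.6 guide were examined as a description of possible side targets. Of the kept genes with an annotated 3′ UTR, 1058 (9.73%) held the 7 letters TTATGCA, and 7 of them were at least 2-fold lower and 9 higher. Their median difference was 0.08, and that of the 9820 genes without a match 0.06. With genes split into 3 classes of UTR length, the medians with and without a match were 0.024 and 0.046 for short UTRs (76 genes with a match), 0.054 and 0.070 for middle ones (290) and 0.086 and 0.066 for long ones (692), so the order of the medians depended on UTR length. Among the Smarca4.4 library's differences from Nons, whose hairpin has another seed, the same 2 medians were 0.09 and 0.03. UTRs with a match were longer, with a median of 2789 bases, than those without, with 1261.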

How the data were processed

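RNA-seq of 4 mESC libraries, 1 per group, was compared. The authors trimmed reads, aligned them with HISAT2 to mm10 with positions that differ between the strains masked, and counted exonic reads per gene in SeqMonk. The deposited values are log2 CPM, made by the authors, with X-linked genes not used here.

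Back-transformed values were whole multiples of 1 step (99.99% within 0.1 of a read), with 0 reads written as 0.9 of a step, which gave the reads and totals. Intervals are exact (Clopper-Pearson, 95%) and cover counting error alone. They treat reads as independent, so they are too narrow where reads are copies of 1 molecule. The floor is 3 reads.

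Genes were named by rule: Smarca4, the 12 higher and 12 lower genes past 2-fold whose interval bound nearest 0 was largest, the next 6 in each direction by level, list members past 2-fold, most different or most abundant, and the 5 highest and lowest symbol families. A few list members were picked for a known role after their values were seen. Members and lists were chosen with earlier results of these data known. GC content, length and UTRs came from GENCODE M21 (GRCm38), with GC found for 90.2% of kept genes and UTRs for 85.3%. Values of 2 list members are not reported here. The computations were tested on simulated reads. Alternatives were no filter, a filter at 3 in place of 0, 2 kinds of centring, a pseudocount of 1 CPM, an interval criterion, classes from another library and, chosen after seeing the data, a level of at least 0 in both libraries. Python 3.11.15, numpy 2.4.6, pandas 2.3.3, scipy 1.17.1 and matplotlib 3.10.9 were used.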

Additional observations from a re-analysis of the deposited data

Results flagged for a closer look

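Among the named genes and list members at least 2-fold different between Smarca4.6 and Nons, 2 differed from Nons in the other direction with hairpin Smarca4.4, with a counting interval wholly on that side. Fgf8, the ligand of the FGF pathway, was higher by 1.65 in Smarca4.6 and differed by -0.80 in Smarca4.4. Tuba3b, an alpha tubulin of the germline list that is nearly identical to Tuba3a, differed by -1.02 in Smarca4.6 and 0.31 in Smarca4.4. Both differences of a gene share the Nons library, each group is 1 library, and the difference between the hairpins was not tested.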

How the results depend on the processing

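No paired analysis was possible because no group holds a second library, and none could be left out. Of 227 genes at least 2-fold different (125 higher, 102 lower), a stricter filter left 34 (14 higher, 20 lower) and a pseudocount of 1 CPM left 72 (35 and 37), while no filter gave 2186 (1225 and 961), where fewer or more thinly counted genes were tested by construction. Centring within GC and length bins, centring on the median, an interval wholly beyond 1.5-fold and, added after seeing the data, a level of at least 0 in both libraries gave counts within 1.5 times, 200, 225, 188 and 164. The Smarca4 difference was -0.46 after centring. Centring turned the sign of the class medians down at least 4-fold (-0.043) and down 2 to 4-fold (-0.015) and moved the others to 0.019 (within 2-fold), -0.078 (up 2 to 4-fold) and -0.086 (up at least 4-fold), by the subtraction of 0.06 alone. The pseudocount also turned the sign of the class down at least 4-fold (-0.011). Classing by day 0 to Nons gave 0.135, 0.150, -0.088 and -0.070 for the 4 classes that change. The pseudocount gave 0.072 within 2-fold and the stricter filter -0.073 for genes up at least 4-fold; the cause was not tested. Of the other list medians under these alternatives, 162 stayed within their 95% order-statistic interval over the genes of the list and 5 did not. The same counts were 57 and 15 for values of single genes and 28 and 2 for family medians. Differences of genes under 1 CPM in Nons rest on few reads, which depth limits.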
